A study of Mus musculus with 3 samples.

Results

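Immediate early genes were read in single cells of the mouse left ventricle: 35 genes listed by symbol, all of them found among the 30360 genes of the deposited matrices. Cells came from C56Bl6 mice in 3 libraries, 1 per group, and each library pooled 4 samples. Control mice had a control diet for 10 weeks, and their label names no vector. Both other groups had High-Fat + L-NAME feeding for 6 weeks, a regimen that gives mice features of HFpEF, heart failure in which the ejection fraction is preserved, and an adeno-associated virus for 4 weeks, which was AAV-scramble-sh in HFpEF-scr and AAV-FoxO1-sh in HFpEF-FoxO1-sh. Which cells take up the vector is not in the labels. The suspension was made by enzymatic digestion, with a 70 µm strainer that held back cardiomyocytes and with lysis of red blood cells.

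Immediate early genes are transcribed within minutes of a stimulus, before any new protein has to be made, by factors already present in the cell. Serum response factor with its partners, and CREB, carry the signals of MAP kinases, calcium and cyclic AMP to their promoters. Their products are transcription factors that switch on a later wave of genes, and brakes that end the response: phosphatases that act on MAP kinases and proteins that degrade short-lived mRNAs. Enzymatic dissociation of a tissue is itself known to induce these genes, so what the cells had in the tissue and what they made during dissociation cannot be told apart in such data.

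The 35 genes were ordered by role. They comprise 7 AP-1 subunits (Fos, Fosb, Fosl1, Fosl2, Jun, Junb, Jund), 6 factors of the EGR and NR4A families (Egr1, Egr2, Egr3, Nr4a1, Nr4a2, Nr4a3) and 6 other early transcription factors (Atf3, Klf6, Klf10, Myc, Maff, Csrnp1). The remaining groups are 3 IER genes (Ier2, Ier3, Ier5), 4 factors of RNA decay and growth arrest (Zfp36, Zfp36l1, Btg1, Btg2), 6 phosphatases and kinases of signalling (Dusp1, Dusp2, Dusp5, Dusp6, Trib1, Sik1) and 3 genes of the stress and cytoskeletal response (Ppp1r15a, Gadd45b, Rhob).

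The promoters of 4 of these genes are shown. Btg2, Atf3 and Fosb were among the genes called higher in fibroblasts of HFpEF-FoxO1-sh than of HFpEF-scr, and Fos is the best-known gene of the list. Ier5 and Egr2 were called higher there too and are not shown. Each sequence holds the 250 bases before the RefSeq start of the gene on GRCm38.p6, written 5′ to 3′ on the strand of the gene. Capitals mark the core of the cyclic AMP response element, TGACG, on either strand. In the longer windows described below, a window of Egr2 held this core and no window of Ier5 did.
Btg2: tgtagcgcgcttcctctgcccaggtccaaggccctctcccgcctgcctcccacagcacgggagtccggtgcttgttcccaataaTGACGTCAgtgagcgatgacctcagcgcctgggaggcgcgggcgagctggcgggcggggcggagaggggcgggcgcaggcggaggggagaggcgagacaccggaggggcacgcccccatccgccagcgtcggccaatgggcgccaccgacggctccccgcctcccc
Atf3: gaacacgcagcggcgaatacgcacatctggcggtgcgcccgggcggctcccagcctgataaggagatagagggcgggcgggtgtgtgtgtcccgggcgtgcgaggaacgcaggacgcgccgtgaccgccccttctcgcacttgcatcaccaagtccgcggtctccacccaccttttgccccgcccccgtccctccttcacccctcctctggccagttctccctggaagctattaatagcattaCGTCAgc
Fosb: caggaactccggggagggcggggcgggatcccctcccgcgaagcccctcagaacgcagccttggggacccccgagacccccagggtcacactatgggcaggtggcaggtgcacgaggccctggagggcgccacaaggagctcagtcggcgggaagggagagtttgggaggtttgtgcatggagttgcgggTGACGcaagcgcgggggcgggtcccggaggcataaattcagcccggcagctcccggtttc
Fos: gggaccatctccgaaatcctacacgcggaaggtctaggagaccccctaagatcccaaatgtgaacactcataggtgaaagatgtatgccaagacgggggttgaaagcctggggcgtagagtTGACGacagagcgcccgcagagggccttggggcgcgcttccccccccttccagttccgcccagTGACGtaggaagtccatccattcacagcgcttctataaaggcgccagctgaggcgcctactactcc

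These windows lie at chr1:134079156-134079405 for Btg2, chr1:191183334-191183583 for Atf3 and chr7:19310046-19310295 for Fosb, all on the minus strand, and at chr12:85473640-85473889 on the plus strand for Fos. The windows of Btg2 and Fos lie upstream of the gene as annotated in GENCODE M21, that of Fosb crosses its annotated end at 19310051, and that of Atf3 lies within the gene (chr1:191170296-191218039). Btg2 holds the full palindrome TGACGTCA, which contains the core on both strands. Atf3 and Fosb hold the core at 1 place each, and Fos holds it at 2 places.

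Of the 35 genes, 27 had a promoter in the RefSeq table, in 36 windows of 300 bases that run from 250 bases before to 50 bases after a start. Egr1, Egr3, Fosl1, Ier2, Klf10, Myc, Sik1 and Trib1 were not among them. The core TGACG, read on both strands, was in 61.1% of the members' windows and in 20.8% of the 32851 windows of all genes. Its full form TGACGTCA, which also counts as a core, was in 11.1% against 1.79%, in Btg2, Dusp1, Maff and Ppp1r15a. The CArG box, the motif of serum response factor, was in 16.7% against 1.63% (Dusp5, Egr2 and Zfp36), and the EGR motif GCGNGGGCG was in 25% against 5.55%. The AP-1 motif TGANTCA was in 5.56% of the members' windows (Csrnp1 and Zfp36l1) and in 7.81% of all windows. These are matches of letters within short windows, and a gene can have several windows that overlap.

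The libraries held between 27453 and 36179 barcodes and between 144561934 and 154385813 unique molecular identifiers (UMIs). The median mitochondrial share of a barcode was 24.6% for Control, 22.1% for HFpEF-scr and 11.7% for HFpEF-FoxO1-sh. After a limit of 20% mitochondrial UMIs, 12757, 14567 and 16854 cells were kept in the same order, with medians of 6889, 6520 and 6607 UMIs and of 12.9%, 12.6% and 9.32% mitochondrial UMIs. Between 238 and 335 cell barcodes were shared by any pair of libraries. Cells were placed in classes by marker genes, with the 35 genes kept out of the genes used for clustering, and a class name stands for cells that are like that class by its markers. Levels are CPM: the UMIs of a gene in a class and library for every 1e6 UMIs found there. The libraries count 3′ ends, so CPM was not divided by gene length, and levels are compared between classes and libraries, not between genes.

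Foxo1, the gene that the hairpin is named for, was not lower in HFpEF-FoxO1-sh than in HFpEF-scr over all kept cells. Its level in all kept cells was 61.1 CPM for Control, 56.2 CPM for HFpEF-scr and 59.7 CPM for HFpEF-FoxO1-sh. In fibroblasts Foxo1 was at 64.1, 58.9 and 64.4 CPM, and in endothelial cells at 65.9, 80.5 and 63.4 CPM, where the last library was below HFpEF-scr and near Control. These values lack most cardiomyocytes, which the strainer held back. The library is therefore called the library labelled HFpEF-FoxO1-sh, and no direction below is drawn from FoxO1. Values of 3 libraries are given in the order Control, HFpEF-scr, HFpEF-FoxO1-sh throughout.

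The highest levels of immediate early RNA were in immune cells. In 13 classes with at least 50 cells in every library, the 35 genes together made up 21213, 20548 and 22886 CPM of monocytes, 17911, 19179 and 30436 CPM of neutrophils and 14599, 15707 and 17782 CPM of T cells. Macrophages had 14383, 14974 and 17397 CPM, dendritic cells 14102, 13747 and 16706 CPM and B cells 13397, 13550.3 and 18476 CPM. In every library each of these 6 immune classes lay above each of the 7 other classes. Monocytes were highest in Control and HFpEF-scr, and neutrophils in the library labelled HFpEF-FoxO1-sh.

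Among the other classes fibroblasts, which secrete the matrix of the heart, had 8667, 8399 and 10614 CPM. Endocardial cells, which line the chamber, had 7092, 8246 and 9579 CPM, endothelial cells of the vessels 7126, 7580.2 and 7759 CPM and smooth muscle cells 8308, 7349.5 and 7390.4 CPM. Lymphatic endothelial cells had 5777, 5918 and 5657 CPM, and Schwann cells, the glia of peripheral nerves, were lowest in every library with 4087, 4381 and 4179.9 CPM. In Control the 95% counting intervals of T cells and macrophages overlapped, as did those of endothelial, endocardial and erythroid cells as neighbours in the order. In HFpEF-scr the intervals of dendritic and B cells overlapped, and those of erythroid and endothelial cells. No neighbours overlapped in the library labelled HFpEF-FoxO1-sh. Each group is 1 library, so all intervals here cover counting error only.

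**Figure D1:**
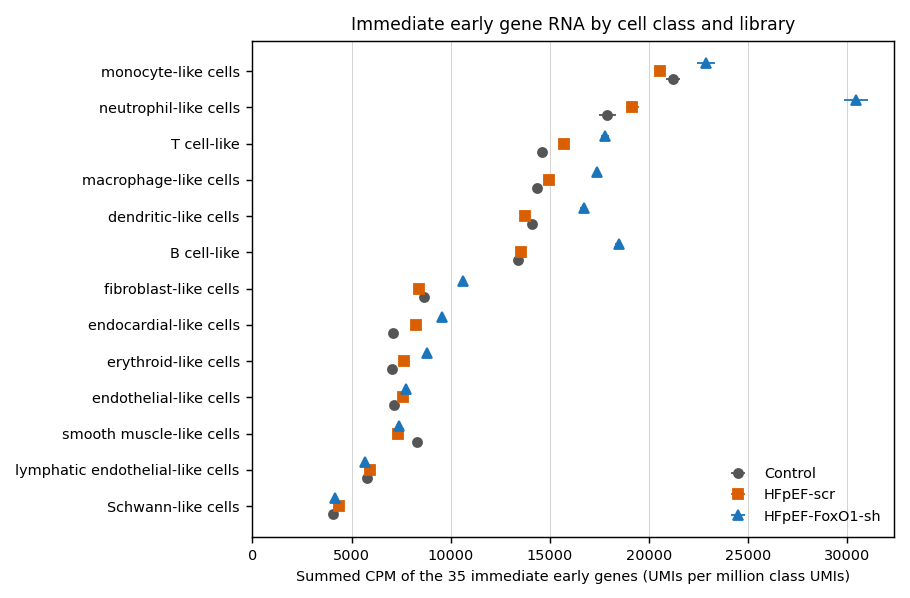
Summed CPM of the 35 immediate early genes for 13 marker-defined classes in the 3 libraries, with 95% Poisson intervals. The 6 immune classes lie above the other 7 in each library, and the values of Control run from 21213 CPM in monocytes down to 4087 CPM in Schwann cells.

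Erythroid cells make little RNA of their own late in their life, but the cells given that name here had 7036, 7649.7 and 8806 CPM of the 35 genes. Their median depth was 8572, 8086 and 8754.5 UMIs, against 6830, 6510 and 6890 UMIs in fibroblasts. Fos was detected in 34.7%, 36.6% and 39.5% of erythroid cells after each cell was thinned to 1000 UMIs, and in 39.2%, 39.2% and 46.9% of fibroblasts. Without thinning the shares were 64.6%, 68.7% and 67.4% of erythroid cells and 66.0%, 65.9% and 71.8% of fibroblasts. Another cluster led by haemoglobin genes had 14 endothelial markers among its 50 leading genes and was left without a name. Whether the cells named erythroid are red cells or other cells with haemoglobin RNA was not tested. How much of the level in any class is free RNA was not tested either. Other genes of the list differed far more between classes: after thinning, Dusp2 was detected in 36.4%, 30.8% and 48.1% of B cells, 1.05%, 2.45% and 3.85% of erythroid cells and 0.0237%, 0.108% and 0.0188% of fibroblasts.

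Of the 35 genes, 32 were highest in an immune class in Control, 33 in HFpEF-scr and 32 in the library labelled HFpEF-FoxO1-sh. Immune classes are 6 of the 13, and the same share over all genes was not counted, so these numbers only describe the list. Fosl1 is among them from 1 UMI in neutrophils, 7 in monocytes and 2 in neutrophils. Egr1, a zinc finger factor of growth and injury signals, was highest in fibroblasts in each library, at 807, 841 and 1079.7 CPM, against 120.3, 184 and 115 CPM in monocytes. Monocytes, the highest class for the summed list in Control and HFpEF-scr, were thus far below fibroblasts for Egr1. Maff, a small MAF factor, was highest in lymphatic endothelial cells in each library, at 62.1, 70.8 and 49.1 CPM, against 7.20, 6.94 and 6.00 CPM in macrophages. Klf10, a factor induced by TGF-beta, was highest in lymphatic endothelial cells in Control (102 CPM), and Egr2 in erythroid cells in the library labelled HFpEF-FoxO1-sh (23.1 CPM).

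AP-1 is a dimer that joins a FOS or a JUN protein to a JUN protein, and its 7 genes made up 53.2%, 50.8% and 52.7% of the members' UMIs in fibroblasts. In monocytes the share was 36.1%, 36.7% and 37.7%. Fos stood at 968, 899.9 and 1251 CPM in fibroblasts, at 1629, 1708 and 2062 CPM in macrophages and at 2429, 2526 and 2747 CPM in monocytes. Its level was thus lowest in fibroblasts of these classes in every library. Jun was highest in macrophages, at 1574, 1511 and 1803 CPM, and stood at 1054, 979 and 1228 CPM in fibroblasts. Junb was at 3098, 3071 and 4011 CPM in T cells and at 936, 832 and 1236 CPM in fibroblasts. Both JUN genes were thus higher in these immune classes than in fibroblasts. Jund, a JUN protein expressed also in resting cells, was highest in B cells, at 2107, 1960.4 and 3078 CPM, and lowest in Schwann cells, at 734, 736 and 828 CPM. Fosl1 was rare, with 27, 38 and 51 UMIs in all kept cells of the 3 libraries.

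The EGR and NR4A factors divided the classes more sharply. Nr4a1, an orphan nuclear receptor needed for the Ly6C-low monocytes of the mouse, was at 1291, 1157 and 1257 CPM in monocytes, 86.2, 89.8 and 116 CPM in fibroblasts and 19.4, 19.0 and 13.5 CPM in lymphatic endothelial cells. Egr3 was highest in B cells, at 100.1, 163 and 190.3 CPM, and the next class, fibroblasts, was at 21.6, 24.0 and 23.5 CPM. Nr4a2 was at 73.1, 98.8 and 101 CPM in T cells and at 12.8, 12.8 and 11.1 CPM in fibroblasts.

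Atf3, a stress-induced factor that restrains inflammatory genes in macrophages, was highest in monocytes and next in macrophages in every library. Its levels were 854, 801 and 861 CPM in monocytes, 472, 516 and 592 CPM in macrophages and 51.8, 42.6 and 73.0 CPM in fibroblasts. Klf6, a zinc finger factor of injury responses, was highest in macrophages, at 872, 894 and 1033 CPM, and stood at 266, 276 and 318 CPM in fibroblasts. Myc, a driver of growth, was highest in B cells, with 124, 188 and 221 CPM against 20.9, 23.2 and 34.4 CPM in fibroblasts.

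Among the IER genes, Ier3 was highest in macrophages, at 435, 369.5 and 469 CPM, and lowest in B cells, at 24.1, 37.3 and 16.3 CPM. Ier2 was at 415, 475 and 573 CPM in T cells and 257, 234 and 307 CPM in fibroblasts. Ier5 was at 457, 439 and 563 CPM in macrophages and 83.8, 62.5 and 103 CPM in fibroblasts.

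The brakes of the response were high in leukocytes too. Zfp36, which encodes tristetraprolin and marks cytokine mRNAs for decay, was highest in monocytes, at 1862, 1876 and 2310.4 CPM, and stood at 208, 184 and 249.9 CPM in fibroblasts. Its relative Zfp36l1 was highest in B cells, at 663, 780.3 and 762 CPM, and lowest in monocytes, at 333, 367 and 331 CPM. Btg1, an antiproliferative factor of quiescent lymphocytes, was at 1676, 1904 and 2091 CPM in T cells and lowest in fibroblasts, at 142, 154 and 183 CPM. The pair Zfp36 and Zfp36l1 thus had their lowest and highest classes apart, and monocytes were at opposite ends.

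Dusp1, the phosphatase that turns off p38 and JNK, was at 1946, 1793 and 1789 CPM in monocytes and 387, 476 and 499.9 CPM in fibroblasts. Dusp2 was at 456, 452 and 834 CPM in B cells and lowest in fibroblasts, at 0.693, 0.917 and 0.622 CPM. Dusp5, a nuclear phosphatase of ERK, was at 336, 270.5 and 299 CPM in monocytes and 1.83, 2.40 and 2.22 CPM in fibroblasts. Both genes were thus far lower in fibroblasts than in these leukocytes. Dusp6, the cytoplasmic phosphatase of ERK, was at 169, 178 and 176 CPM in macrophages and 32.5, 34.2 and 35.8 CPM in fibroblasts. Rhob, a small GTPase of the actin cytoskeleton, was highest in macrophages, at 595, 657 and 726 CPM, and lowest in T cells, at 113, 125 and 116 CPM.

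**Figure D2:**
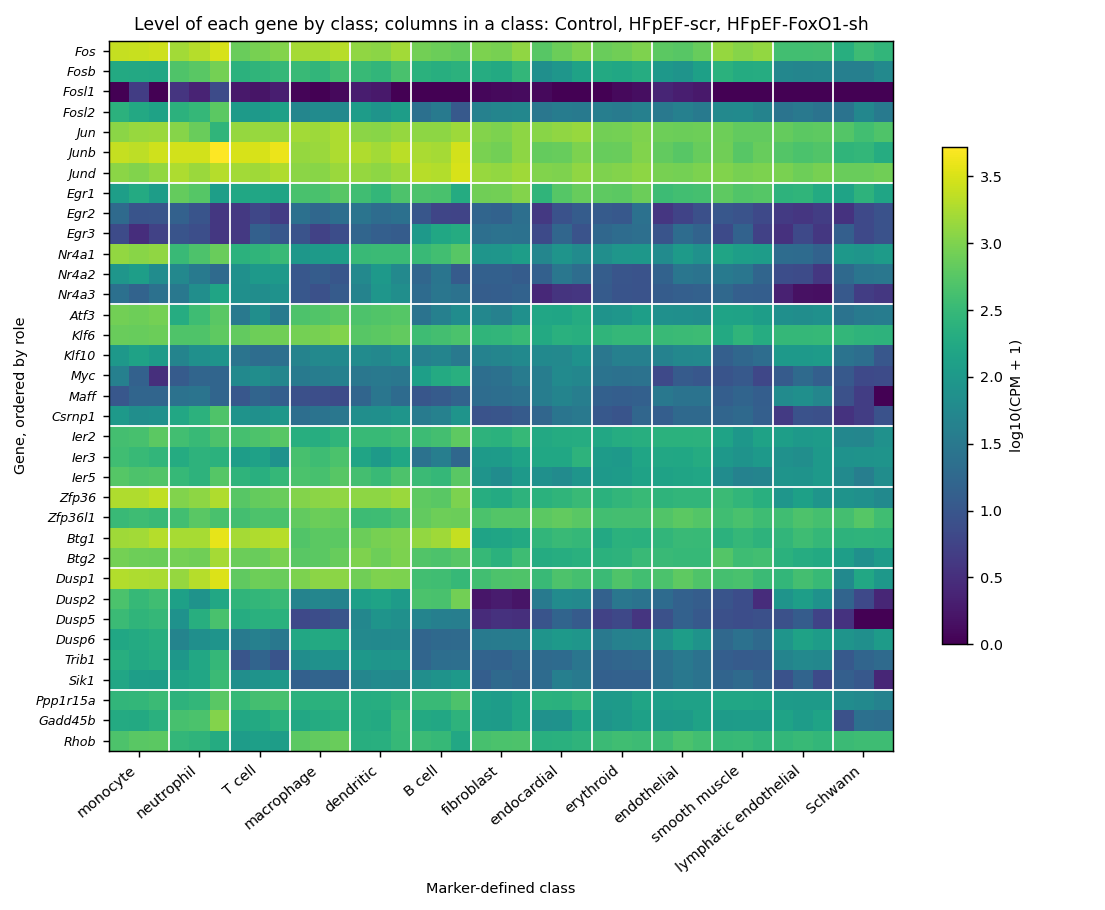
Level of each of the 35 genes as log10(CPM + 1) (colour) in 13 classes and 3 libraries (columns), with genes in rows. Most genes have their highest value in an immune class, Egr1 has it in fibroblasts, and Dusp2 is lowest in fibroblasts in all 3 libraries.

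The genes whose CPM ran most like the summed CPM of the 35 genes over 39 profiles (13 classes in 3 libraries) were Ccnl1 (Spearman correlation 0.933), Apbb1ip (0.911), Tiparp (0.886), Lsp1 (0.877), Nfkbiz (0.876), Adgre5 (0.874), Mcl1 (0.870), Spn (0.867), Ttc7 (0.867) and Cd53 (0.862), among 6292 genes with a mean of at least 20 CPM. The profiles share libraries and depth, and the likeness follows the order of the classes.

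In fibroblasts, the largest class with 8446, 9291 and 10631 cells, the level of the 35 genes differed little between HFpEF-scr and Control. Summed CPM was 8399 against 8667, a ratio of 0.969 (95% interval 0.965 to 0.973). A gene was called higher or lower where its CPM differed by at least 1.5 times in either direction, the 95% interval excluded 1 and both libraries held at least 20 UMIs together. By this rule 0 of 35 genes were higher and 0 lower, when 1.72% of 14927 measured genes were higher and 1.96% lower. Nothing was replicated, since each group is 1 library, so a call compares libraries, not conditions, and carries no test.

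Fosl1 alone had a ratio past 1.5 (1.53, 0.654 to 3.78), from 16 and 10 UMIs, and its interval included 1. Sik1, a kinase induced by cyclic AMP, was just under the threshold, at 17.4 against 11.8 CPM in Control (1.48, 1.34 to 1.63). Dusp1 was at 476 against 387 CPM (1.23, 1.21 to 1.25). Junb was at 832 against 936 CPM (0.890, 0.879 to 0.900). By role, 5 of 7 AP-1 subunits had a ratio below 1, and 5 of 6 phosphatases and kinases had a ratio above 1. No share of all genes is set beside these counts by role, so they only describe the list.

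The library labelled HFpEF-FoxO1-sh had more immediate early RNA in fibroblasts than HFpEF-scr, at 10614 against 8399 CPM, a ratio of 1.26 (1.26 to 1.27). Of the 35 genes 30 had a ratio above 1, against 59.9% of all measured genes, and the median log2 ratio was 0.32 against 0.03 over all genes. By the rule above 5 of 35 genes were higher and 0 lower, when 1.78% of 15042 measured genes were higher and 2.31% lower. Mitochondrial UMIs count in the totals behind these CPM, and their median share in fibroblasts was 8.67% against 12.2% in HFpEF-scr. With them left out of the totals the summed ratio was 1.22. Both comparisons use HFpEF-scr, and in each of the 5 genes HFpEF-scr was the lowest library.

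Atf3 was at 51.8, 42.6 and 73.0 CPM, which gave a ratio over HFpEF-scr of 1.71, 1.64 to 1.79. Ier5, which takes part in the activation of heat shock factor, was at 83.8, 62.5 and 103 CPM, with a ratio of 1.64, 1.58 to 1.71. Fosb, a FOS protein, was at 202, 180.2 and 288 CPM, with a ratio of 1.60, 1.56 to 1.63. In these 3 genes the last library lay above both others.

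Egr2, a factor best known from Schwann cell myelination, was at 15.2, 13.8 and 21.5 CPM, with a ratio of 1.55, 1.43 to 1.69. Btg2, an antiproliferative gene induced by p53, was at 310.3, 235 and 363 CPM, with a ratio of 1.55, 1.51 to 1.58. These genes too were highest in the last library. Atf3 is annotated at chr1:191170296-191218039, Ier5 at chr1:155096361-155099636 and Btg2 at chr1:134075170-134079120, all on the minus strand of mm10. Fosb lies at chr7:19302696-19310051 on the minus strand and Egr2 at chr10:67535475-67542188 on the plus strand.

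Each of these 5 calls was lost under at least 1 other setting. The share of all measured genes called was not counted under other settings, here or in the other classes, so those counts only describe the list. Without the fibroblast cluster led by Hsd11b1, Atf3 alone was still called, and the ratio of summed CPM was 1.19. With the same classes and at most 10% mitochondrial UMIs (1712, 2204 and 7316 fibroblasts), Fosb and Ier5 alone were, 2 other genes were called lower, and the ratio of summed CPM was 1.21.

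Just under the threshold were Junb (1236 against 832 CPM, 1.49, 1.47 to 1.5), Myc (34.4 against 23.2 CPM, 1.48, 1.39 to 1.58) and Gadd45b, a stress sensor of the MAP kinase pathways (156 against 107 CPM, 1.46, 1.41 to 1.5). Fos had a ratio of 1.39, Ppp1r15a of 1.40, Zfp36 of 1.36 and Egr1 of 1.28. The lowest ratio was that of Dusp2, at 0.622 against 0.917 CPM (0.678, 0.453 to 1.01). Zfp36l1 (1.00) and Dusp1 (1.05) hardly differed. By role, all 7 AP-1 subunits, all 6 of the other early transcription factors and all 3 IER genes were above 1. Of the phosphatases and kinases 3 of 6 were, with a median log2 ratio of -0.01.

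**Figure D3:**
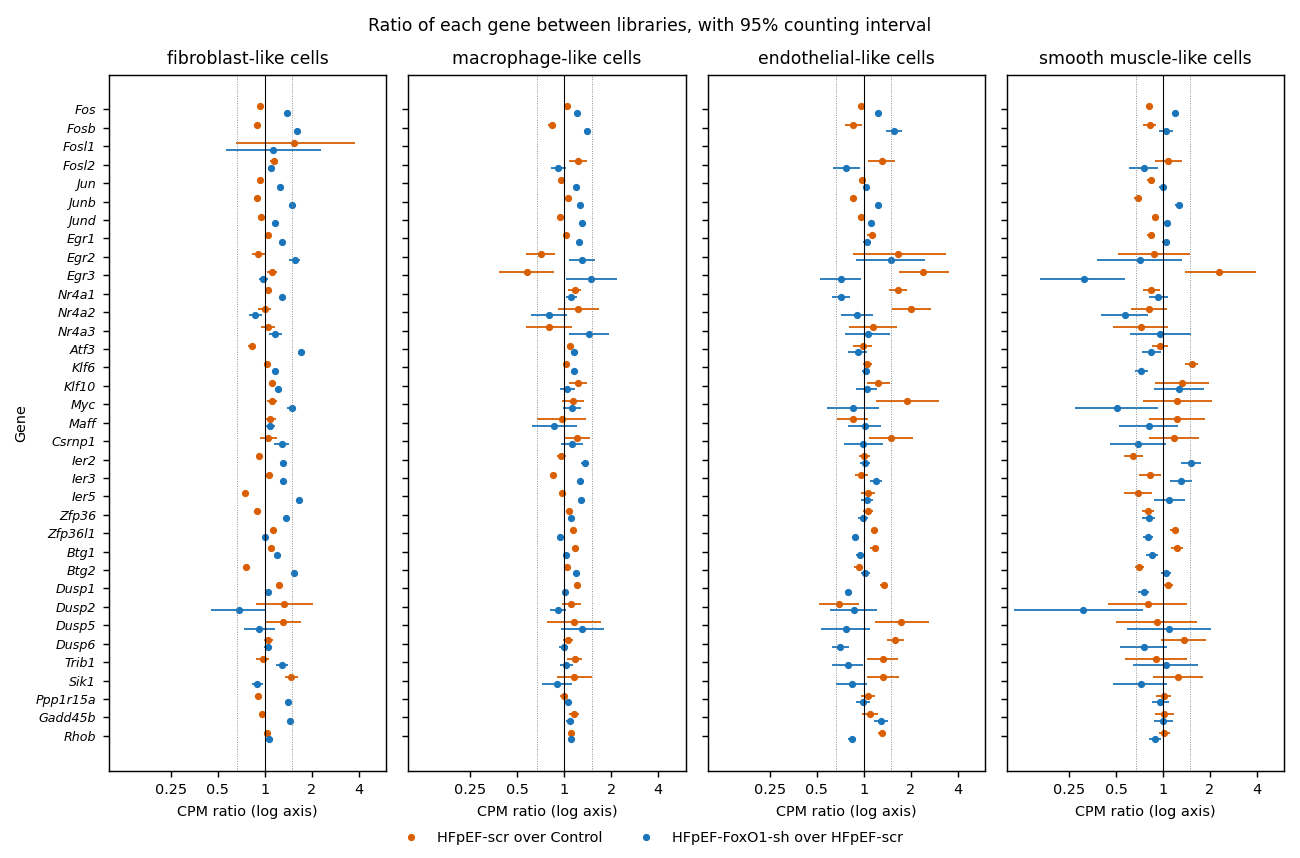
Ratio of CPM between libraries (log axis) for each measured gene in fibroblast, macrophage, endothelial and smooth muscle cells, for both comparisons, with 95% counting intervals. Dotted lines mark a ratio of 1.5 either way. In fibroblasts 30 of 35 genes have a ratio above 1 for HFpEF-FoxO1-sh over HFpEF-scr.

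Other genes of the early response stood beside them in the same fibroblasts. Of 33 measured regulators of immediate early genes, such as serum response factor, CREB and the MAP kinases, 0 were called in either comparison, and their summed CPM was 1277, 1297 and 1294. Of 49 other early response genes 1 was higher and 0 lower in the second comparison: Socs3, a brake on cytokine receptors (126 against 57.0 CPM, 2.21, 2.12 to 2.29). In the first comparison 0 were higher and 2 lower, Socs3 (57.0 against 86.2 CPM, 0.661) and Nfil3 (9.06 against 13.8 CPM, 0.655). Socs3 was thus lowest in HFpEF-scr, as the 5 genes above were.

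The NF-kB feedback genes and early cytokines differed between HFpEF-scr and Control, with 6 of 24 higher and 0 lower. They included Ccl7 (202 against 76.3 CPM, 2.65) and Ccl2 (185 against 122 CPM, 1.51), chemokines that draw monocytes. In the second comparison 1 of 24 was higher, Il6 (12.0 against 6.64 CPM, 1.81), and 3 were lower.

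Heat shock genes, a further sign of stress in dissociated tissue, leaned the same way as the 35 genes. Their summed CPM in fibroblasts was 6904, 6577 and 7498, and of 22 genes 21 had a ratio above 1 in the second comparison. Dnajb1, a co-chaperone of HSP70, was the 1 gene called higher (106 against 69.6 CPM, 1.53), and 0 were lower. In the first comparison 0 of 22 were called. The part of dissociation in the immediate early levels was not tested. Macrophage markers in fibroblasts summed to 5946, 4187 and 4888 CPM over 21 of 21 genes with a UMI, and fibroblast markers to 55320.5, 55457 and 56194 CPM over 26 of 26 genes. Macrophage markers were thus highest in Control, and their part in the fibroblast ratios was not tested.

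Within fibroblasts the level depended on the subset of cells. The 6 fibroblast clusters are called here by their leading genes, and their levels are a description. The cluster led by Hsd11b1 and Cxcl14 was highest, at 13970.3, 12698 and 16507 CPM, and that led by Cxcl14 and Inmt was lowest, at 5987, 5829 and 6859.9 CPM. Both had Hsd11b1, Cxcl14, Msc, Dpep1, Mme, Penk and Ifi205 among their 10 leading genes. The 4 others lay between 7853 and 9985 CPM. Heat shock genes were highest in the same cluster, at 9805, 9160.1 and 10352 CPM, and lowest in the same other cluster, at 4997, 4482 and 4768 CPM.

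The library labelled HFpEF-FoxO1-sh was the highest in 5 of the 6 clusters. The exception was the cluster led by Wif1, an inhibitor of Wnt ligands, at 9047, 8070.2 and 8305 CPM. Atf3 was at 90.7, 74.9 and 82.8 CPM there, at 71.0, 58.8 and 113 CPM in the cluster led by Hsd11b1 and at 10.3, 9.81 and 13.3 CPM in that led by Cxcl14. The cluster led by Hsd11b1 made up 14.6, 16.1 and 22.2 percent of fibroblasts, so its share differed between the libraries as well as its level. With every cluster weighted alike the ratio of summed CPM was 1.21.

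The level also differed between bands of mitochondrial share. Among fibroblasts with 5 to 10% mitochondrial UMIs the 35 genes summed to 9108, 9029 and 11022 CPM, and among those with 10 to 15% to 8853, 8374 and 9891 CPM. Among those with 15 to 20% they summed to 7532, 7423 and 7336 CPM, and there the library labelled HFpEF-FoxO1-sh was the lowest, with a ratio over HFpEF-scr of 0.988. The number of fibroblasts in the last band was 1973, 2019 and 446, and in the band of 5 to 10% it was 1688, 2172 and 6997. The Spearman correlation over single fibroblasts of the members' share of UMIs with the mitochondrial share was -0.14, -0.14 and -0.13, where cells share a library and its handling. Mitochondrial UMIs are part of the total, which by itself lowers the members' share where they are many. Without them in the total, the 35 genes summed to 9947, 9852 and 11926 CPM at 5 to 10%. They summed to 10099, 9545 and 11196 CPM at 10 to 15%, and to 9061, 8935 and 8816 CPM at 15 to 20%. In Control the level was then not lower at 10 to 15% than at 5 to 10%.

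**Figure D4:**
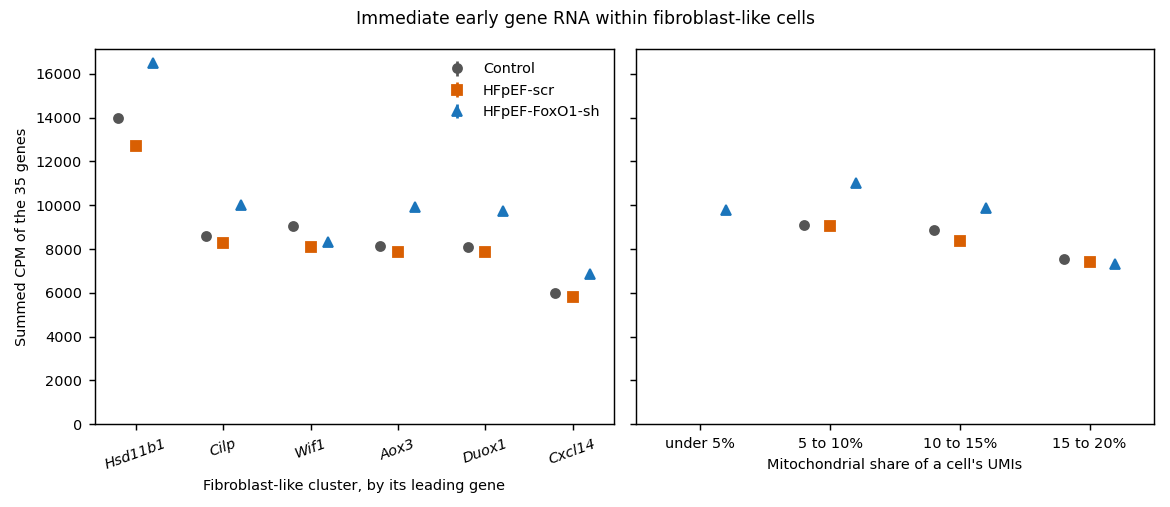
Summed CPM of the 35 genes in fibroblasts by cluster, named by its leading gene (left), and by band of mitochondrial share (right), in the 3 libraries with 95% Poisson intervals. The library labelled HFpEF-FoxO1-sh is highest in 5 of 6 clusters and in the bands of 5 to 10% and 10 to 15%, but not in the cluster led by Wif1 or in the band of 15 to 20%. That library alone had at least 50 fibroblasts under 5%.

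In fibroblasts the 10th percentile of the members' UMIs per 10000 UMIs of a cell was 22.3, 24.9 and 26.3, the median 67.2, 68.0 and 86.2 and the 90th percentile 174, 161 and 208. The library labelled HFpEF-FoxO1-sh was the highest at each of these points. In macrophages the medians were 112, 124 and 143, in endothelial cells 54.0, 60.0 and 56.3 and in smooth muscle cells 67.0, 52.3 and 54.9. After thinning to 1000 UMIs, 2.84, 2.48 and 2.05 percent of fibroblasts held no UMI of any of the 35 genes.

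The genes varied together from cell to cell to unequal degrees. In 9090 fibroblasts of HFpEF-scr thinned to 3000 UMIs, Fos had a Spearman correlation of 0.61 with the summed UMIs of the other members. Egr1 had 0.61, Junb 0.59, Jun 0.50, Fosb 0.47 and Btg2 0.41, while Zfp36l1 had 0.14. In 1512 macrophages the order was led by Junb (0.67) and Zfp36 (0.63), followed by Fos (0.61), Dusp1 (0.60) and Atf3 (0.55). Sparse genes cannot reach high values, and the cells share library and depth, so these values describe the cells.

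**Figure D5:**
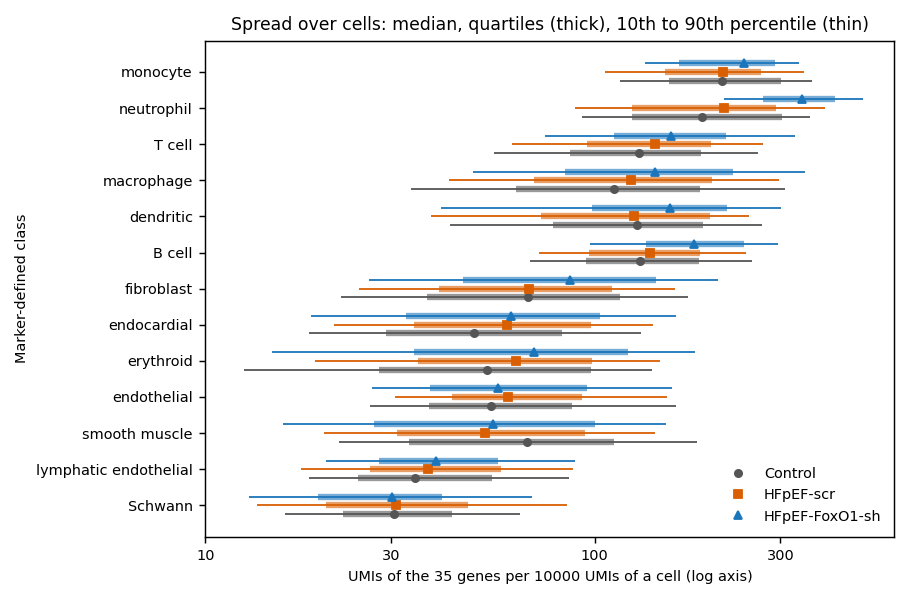
UMIs of the 35 genes per 10000 UMIs of a cell (log axis) in the classes and 3 libraries: points are medians over cells, thick lines quartiles and thin lines the 10th to 90th percentile. Within fibroblasts of Control the 10th and 90th percentile lie at 22.3 and 174, and the medians of the 3 libraries lie at 67.2, 68.0 and 86.2.

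In macrophages (1119, 1546 and 1979 cells) the summed level was likewise highest in the library labelled HFpEF-FoxO1-sh, at 17397 against 14974 CPM in HFpEF-scr. Between HFpEF-scr and Control 0 of 34 measured genes were higher and 1 lower, when 1.71% of 11525 measured genes were higher and 2.39% lower. The gene was Egr3, at 4.49 against 7.82 CPM (0.575, 0.384 to 0.854) from 46 and 63 UMIs. With doublets kept, where the cells were clustered anew and the cluster led by H2-Eb1 was left without a name, its log2 ratio was 0.12. With the same classes and at most 10% mitochondrial UMIs it was -0.028.

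Between the library labelled HFpEF-FoxO1-sh and HFpEF-scr 0 of 34 genes were higher and 0 lower in macrophages, when 2.11% of 11865 measured genes were higher and 2.03% lower. The summed ratio was 1.16 (1.15 to 1.17), and 27 of 34 genes were above 1, with a median log2 ratio of 0.16 against 0.04 over all genes. With mitochondrial UMIs left out of the totals the summed ratio was 1.12. With the same classes and at most 10% mitochondrial UMIs (104, 198 and 1009 macrophages), 4 genes were higher and 3 lower. Fos was at 1629, 1708 and 2062 CPM, Junb at 1357, 1439.8 and 1818 CPM and Fosb at 335, 277 and 386 CPM. All 3 were highest in the library labelled HFpEF-FoxO1-sh.

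Heat shock genes summed to 9695, 10327.5 and 12511 CPM in the same macrophages. Both macrophage clusters had their highest immediate early level in the library labelled HFpEF-FoxO1-sh: that led by H2-Eb1, a gene of antigen presentation, at 15968, 16317 and 19192.5 CPM, and that led by Cd209f at 12907, 13338 and 15500 CPM. So did all 3 bands of mitochondrial share with enough cells, from 5 to 10% (12990.2, 13265 and 17344 CPM) to 15 to 20% (14859, 16346 and 17663 CPM). In macrophages the higher level was thus also found within each band, which in fibroblasts it was not.

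In endothelial cells (446, 647 and 532 cells) more genes were called between HFpEF-scr and Control. There 6 of 34 measured genes were higher and 0 lower, when 1.85% of 12062 measured genes were higher and 3.34% lower. Egr3 was at 8.28, 19.9 and 14.2 CPM, a ratio of HFpEF-scr to Control of 2.41, 1.69 to 3.5. Nr4a2 was at 13.7, 27.6 and 25 CPM (2.01, 1.51 to 2.69). Nr4a1, which has been tied to angiogenesis, was at 62.2, 104 and 74.2 CPM (1.66, 1.45 to 1.91). These nuclear receptors and Egr3 were thus lowest in Control.

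Dusp6, a target and brake of ERK signalling, was at 71.7, 115 and 81.3 CPM (1.60, 1.41 to 1.82). Dusp5 was at 7.47, 13.1 and 10.0 CPM (1.75, 1.18 to 2.64) and Myc at 5.66, 10.7 and 9.21 CPM (1.89, 1.21 to 3.04). Each of the 6 genes was highest in HFpEF-scr. All 6 EGR and NR4A genes were above 1, with a median log2 ratio of 0.65 against -0.01 over all genes, while 5 of 6 measured AP-1 subunits were below 1. With the same classes and at most 10% mitochondrial UMIs (29, 68 and 65 cells) 1 gene, Dusp6, was higher and 6 were lower, and the log2 ratio of Nr4a2 turned to -0.51. With cells clustered anew at a limit of 50% the class held 2086, 2043 and 1321 cells. The limit of 20% thus left out many endothelial cells, in unequal parts between the libraries. The count of genes called higher was 10 with at most 50%, and 1 after thinning to 1000 UMIs, where fewer genes reach the 20 UMIs. Beside them 9 of 49 other early response genes were higher and 0 lower, among them Rgs2, a regulator of G protein signalling (48.1 against 23.8 CPM, 2.02).

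Between the library labelled HFpEF-FoxO1-sh and HFpEF-scr 1 of 34 genes was higher in endothelial cells and 0 lower, when 4.53% of 12088 measured genes were higher and 2.41% lower. That gene was Fosb, at 96.2, 82.6 and 129 CPM (1.57, 1.40 to 1.76), which was not called with at most 50% mitochondrial UMIs. All 6 phosphatases and kinases had a ratio under 1, with a median log2 ratio of -0.33. No value over all genes is set beside this count, so it only describes the list. Markers of other cells differed between these libraries: fibroblast markers in endothelial cells summed to 7869, 5678 and 7832 CPM (26 of 26 genes with a UMI), macrophage markers to 1625, 675 and 1118 CPM (21 of 21) and endothelial markers to 30177.5, 39946 and 34695 CPM (30 of 30). Their part in these ratios was not tested.

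In smooth muscle cells (406, 362 and 369 cells) the summed level was highest in Control, at 8308 CPM. Between HFpEF-scr and Control 2 of 34 genes were higher and 1 lower, when 2.51% of 11168 measured genes were higher and 2.53% lower. Klf6 was at 179, 274 and 199 CPM (1.53, 1.38 to 1.68), Egr3 at 5.89, 13.6 and 4.25 CPM (2.30, 1.38 to 3.94) and Ier2 at 144, 92.5 and 139 CPM (0.644, 0.559 to 0.739). In these 3 genes HFpEF-scr stood apart from both other libraries.

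Between the library labelled HFpEF-FoxO1-sh and HFpEF-scr 1 of 34 genes was higher and 4 were lower in smooth muscle cells, when 1.9% of 11011 measured genes were higher and 3.44% lower. Ier2 was the higher gene (1.51, 1.30 to 1.74), though its log2 ratio was -0.027 after thinning to 1000 UMIs. Egr3 was lower (0.314, 0.163 to 0.573), as were Nr4a2, at 33.6, 27.4 and 15.6 CPM (0.569, 0.400 to 0.803), and Myc, at 8.09, 10.0 and 5.10 CPM (0.510, 0.271 to 0.928). Dusp2 was lower too (0.306, 0.111 to 0.742), from 7 and 22 UMIs. Nr4a2 turned direction with the same classes and at most 10% mitochondrial UMIs, at a log2 ratio of 0.37. Erythroid markers in smooth muscle cells summed to 3749.6, 3869 and 469.6 CPM and neutrophil markers to 120.2, 462 and 223 CPM, and their part in these ratios was not tested.

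Endocardial cells (572, 424 and 353 cells) had 10 of 33 genes higher and 0 lower between HFpEF-scr and Control, when 2.94% of 10903 measured genes were higher and 2.4% lower. Egr1 was at 268, 548 and 726 CPM (2.05, 1.89 to 2.21), Sik1 at 18.7, 39.6 and 33.0 CPM (2.12, 1.57 to 2.88) and Nr4a1 at 50.5, 81.8 and 61.9 CPM (1.62, 1.34 to 1.97). The others were Egr2, Egr3, Nr4a2, Myc, Csrnp1, Dusp2 and Dusp5, with ratios between 1.62 and 2.81. All 5 measured EGR and NR4A genes were among the 10, and so were 3 of 6 phosphatases and kinases. The count was 11 with cells clustered anew at a limit of 10% mitochondrial UMIs, 10 with finer clusters, 9 with at most 50% mitochondrial UMIs and 8 with doublets kept. It was 5 with each cell classed by its own markers, 4 with the same classes and at most 10% mitochondrial UMIs, and 3 after thinning to 1000 UMIs.

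Between the library labelled HFpEF-FoxO1-sh and HFpEF-scr Fosb (1.55), Ier3 (1.54) and Gadd45b (1.94) were higher in endocardial cells and Egr3 (0.501) was lower, which makes 3 higher and 1 lower of 33, when 3.22% of 10685 measured genes were higher and 1.67% lower. Gadd45b was at 73.9, 76.7 and 149 CPM, so that the last library stood apart from both others. The median mitochondrial share of endocardial cells was 13.8%, 13.4% and 9.10%, lowest in that library, and its part was not tested.

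Neutrophils and B cells had many calls between the library labelled HFpEF-FoxO1-sh and HFpEF-scr, and in both classes the depth of the cells differed between the libraries. In neutrophils (60, 120 and 111 cells) 18 of 31 genes were higher and 2 lower, when 11.1% of 5444 measured genes were higher and 20.3% lower. HFpEF-scr against Control had 5 of 31 higher and 1 lower in neutrophils (6.46% and 7.31% of all measured genes). The median neutrophil had 5596, 4952.5 and 2400 UMIs. With cells clustered anew at a limit of 50% mitochondrial UMIs, the class held 144, 293 and 135 cells. Junb was at 2923, 2909 and 5228 CPM and Btg1 at 1727, 1699 and 3845 CPM, highest in the last library. The count of higher genes was 16 with the same classes and at most 10% mitochondrial UMIs, 14 with finer clusters, 11 after thinning and 9 with doublets kept. It was 2 and 4 with cells clustered anew at limits of 10% and 50%, and 3 with each cell classed by its own markers. At 10% the cluster named neutrophil was led by Hdc, with 80, 164 and 79 cells, and a cluster led by S100a8 was named erythroid. The count of 2 is therefore not for the same cells. Egr1, at 680.2, 551 and 122 CPM, and Jun, at 1093, 744 and 269 CPM, were lowest there.

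In B cells (184, 214 and 722 cells) 10 of 33 genes were higher and 5 lower, when 5.56% of 9132 measured genes were higher and 26.1% lower. Dusp2, at 456, 452 and 834 CPM (1.85, 1.68 to 2.03), and Ier5, at 342, 296 and 587 CPM (1.98, 1.76 to 2.23), were highest in the last library. Egr1 was at 477, 449 and 194 CPM (0.432, 0.380 to 0.491) and lowest there. The comparison of HFpEF-scr with Control had 3 of 33 higher and 0 lower (2.76% and 2.53% of all measured genes). The median B cell had 4984.5, 5180.5 and 2705.5 UMIs, and 705 of the 722 B cells of the library labelled HFpEF-FoxO1-sh were in 1 cluster that held 103 of 184 in Control and 128 of 214 in HFpEF-scr. That cluster had a median doublet score of 0.0128 and a median of 2781.5 UMIs. The other B cell cluster had 0.238 and 8458.5 UMIs, and made up 44.0%, 40.2% and 2.35% of B cells. With the same classes and at most 10% mitochondrial UMIs 3 genes were higher in B cells and 2 lower. With cells clustered anew at 50% 0 genes were called higher in B cells and 1 lower, and after thinning to 1000 UMIs 3 higher and 2 lower. The part of the cluster makeup and of doublets in these calls was not tested.

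The 6 remaining classes had few calls, given here with the shares of all measured genes called higher and lower. Between HFpEF-scr and Control, T cells had 2 of 33 higher and 0 lower (3.45% and 2.26% of all measured genes), namely Egr3 (4.15, 1.39 to 16.7, from 20 and 4 UMIs) and Atf3 (2.20, 1.52 to 3.25). Dendritic cells had 4 of 34 higher and 0 lower (2.67% and 2.9% of all measured genes): Nr4a2, Nr4a3, Maff and Dusp5. Lymphatic endothelial cells had 3 of 31 higher and 0 lower (1.81% and 2.53% of all measured genes): Myc, Dusp6 and Sik1. No gene was lower in these 3 classes. Schwann cells had 3 of 23 higher and 1 lower (2.92% and 2.43% of all measured genes), with Fos, Egr1 and Dusp1 higher and Btg2 lower. In monocytes the counts were 1 of 33 higher and 1 lower (2.88% and 3.32% of all measured genes), with Egr1 higher and Myc lower, and in erythroid cells 1 of 34 higher and 0 lower (3.49% and 2.28% of all measured genes), the gene being Dusp2. The higher genes thus differed from class to class, and Egr3 in T cells had the largest ratio among them.

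In the other comparison, which sets the library labelled HFpEF-FoxO1-sh against HFpEF-scr, T cells had 0 of 33 higher and 2 lower (2.4% and 3.53% of all measured genes): Atf3 (0.485, 0.350 to 0.666) and Ier3 (0.581, 0.468 to 0.721). Dendritic cells had 4 of 34 higher and 1 lower (4.73% and 3.63% of all measured genes), with Fosb, Egr1, Ier3 and Gadd45b higher and Nr4a2 lower. Lymphatic endothelial cells had 0 of 31 higher and 4 lower (2.87% and 1.68% of all measured genes): Zfp36, Dusp2, Dusp5 and Sik1. Both phosphatases named here act on MAP kinases, and Zfp36 acts on mRNA decay. Monocytes had 0 of 33 higher and 2 lower (2.65% and 4.97% of all measured genes), Egr1 and Nr4a2. Schwann cells had 1 of 24 higher and 2 lower (3.68% and 4.65% of all measured genes), with Dusp6 higher and Egr1 and Dusp1 lower. Erythroid cells had 3 of 34 higher and 0 lower (1.77% and 2.62% of all measured genes): Egr2, Csrnp1 and Ier3. Atf3, the gene with the largest ratio in fibroblasts, was thus lower in T cells, a difference that was not tested. Alternatives were not run for these 6 classes.

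Both comparisons over the 13 classes use HFpEF-scr, so a gene that is low or high there leans in opposite directions in them. Between the library labelled HFpEF-FoxO1-sh and HFpEF-scr, 8 of the 24 members measured in all 13 classes had a ratio above 1 in at least 11 of them, and 2 had a ratio below 1. Of all 3962 genes measured in all 13 classes, 6.16% were above 1 and 7.87% below 1 by the same count. The genes named next were picked for the most extreme counts of the list. Ier2, Ier5 and Jund had a ratio above 1 in 13 of 13 classes, with medians of 1.31, 1.35 and 1.2. Fosb, Junb and Gadd45b were above 1 in 12 of 13, with medians of 1.39, 1.31 and 1.30. Nr4a2, in contrast, was below 1 in 11 of 13 classes, with a median of 0.713, as was Zfp36l1 with 0.901, and Dusp1 was below 1 in 10 of 13 with 0.872. Between HFpEF-scr and Control 6 of 23 members were above 1 in at least 11 classes and 2 below 1, against 8.42% and 8.17% of all 4147 genes measured in all classes. Zfp36l1 was above 1 in 13 of 13 classes (median 1.17), Btg1 and Dusp6 in 12 of 13 (1.17 and 1.16), and Jund and Ier5 were below 1 in 11 of 13 (0.939 and 0.859). Classes of a library share its handling and its free RNA, so their number is not a number of replicates.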

How the data were processed

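Single-cell RNA-seq libraries of the mouse left ventricle were read from the counts of UMIs per gene and barcode that the authors deposited. They were made with Cell Ranger 6.1.2 on mm10, per the submitters' processing notes, and the barcode filter and annotation release are not given in the sources used here. No barcode had fewer than 500 UMIs.

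Kept barcodes had at least 500 UMIs, at least 300 genes and a mitochondrial share of at most 20%. Scrublet (expected share 12%) marked 1.41%, 2.29% and 3.09% of these in the order Control, HFpEF-scr, HFpEF-FoxO1-sh as doublets, which were removed. Counts were scaled to 10000 per cell, logged, and clustered over all libraries with scanpy 1.11.5 and igraph 0.11.9 (2000 variable genes without the 35 members, 30 principal components, 15 nearest neighbours, Leiden resolution 1.0, resolution 0.5 for clusters tied between classes, seed 0). A cluster was named from marker genes when at least 3 were among its 50 leading genes and no other class led among its 10 leading genes. UMIs were summed per class and library, with exact Poisson intervals for CPM, Clopper-Pearson intervals for shares of cells and conditional binomial intervals for ratios, all at 95%. They cover counting error only. Median log2 ratios used a pseudocount of 1 CPM. Each group is 1 library of pooled samples, so no p-value is given. Python 3.11.15, numpy 2.4.6, pandas 2.3.3, scipy 1.17.1, anndata 0.12.19 and matplotlib 3.10.9 were used.

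Genes named in full were those called in the 4 classes ranked first by the cell number of their smallest library (fibroblast, macrophage, endothelial and smooth muscle), the 3 genes with the most UMIs in each role group and up to 4 called genes of each context list. The 10 other genes most like the summed list were named by correlation. Genes outside this rule, those of other classes included, were chosen after their values were seen. The members and lists were chosen with earlier results of these data known. Gene positions are from GENCODE M21 (GRCm38, mm10) by Ensembl identifier, and promoters are from RefSeq on GRCm38.p6. Alternatives covered the limits on cells, doublets, clustering, depth, denominator and weighting.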

Additional observations from a re-analysis of the deposited data

Results flagged for a closer look

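For 11 genes a ratio passed the threshold upward in 1 class and downward in another under the same comparison. The same share over all genes was not counted, so this number only describes the list. None of these differences between classes was tested, since each group is 1 library. Between HFpEF-scr and Control, the ratio of Egr3 was 4.15 in T cells and 0.575 in macrophages. That of Myc was 1.89 in endothelial cells and 0.318 in monocytes, and that of Dusp2 was 2.17 in erythroid cells and 0.618 in neutrophils.

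Between the library labelled HFpEF-FoxO1-sh and HFpEF-scr, more genes differed in direction between classes. Atf3 had a ratio of 1.71 in fibroblasts and 0.485 in T cells. Ier3 had 1.54 in endocardial cells and 0.436 in B cells, and Zfp36 had 1.62 in B cells and 0.653 in lymphatic endothelial cells. Egr1 had 1.63 in dendritic cells and 0.222 in neutrophils.

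Neutrophils were the highest class for 5 of these genes in the same comparison. Fosl2 had a ratio of 2.02 there and 0.305 in B cells. Dusp1 had 1.65 there and 0.574 in Schwann cells. Dusp2 had 2.10 there and 0.306 in smooth muscle cells, Dusp5 2.06 there and 0.426 in lymphatic endothelial cells, and Sik1 2.16 there and 0.403 in lymphatic endothelial cells. The median neutrophil of the library labelled HFpEF-FoxO1-sh had 2400 UMIs, against 4952.5 in HFpEF-scr.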

How the results depend on the processing

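Counts of genes called in fibroblasts, macrophages, endothelial and smooth muscle cells kept within 1.5 times their value with at least 1000 UMIs per barcode and with no UMI minimum for a gene, and a pseudocount of 0.1 CPM moved no median out of its interval. The summed ratio of fibroblasts between the library labelled HFpEF-FoxO1-sh and HFpEF-scr lay between 1.19 and 1.28 under the alternatives that did not split the class into bands, but was 1.22, 1.18 and 0.988 within the bands of 5 to 10%, 10 to 15% and 15 to 20% mitochondrial UMIs. Other limits on mitochondrial UMIs, doublets kept and other clusterings change which clusters are named as well: with at most 10% and with doublets kept the macrophage cluster with H2-Eb1 among its leading genes and the fibroblast cluster with Wif1 among them had no class name. With at most 10% a cluster led by S100a8 was named erythroid, and that named neutrophil was led by Hdc. With cells clustered anew at 10%, the 232 marked doublets of the library labelled HFpEF-FoxO1-sh were removed, but none from Control (2591 cells kept) or HFpEF-scr (3441 cells kept). The libraries thus differ in that filter under this setting. For these reasons the limit of 10% was also set with classes unchanged. Settings with classes unchanged, those that weighted clusters alike or left clusters out, and those for endocardial cells, neutrophils and B cells, were chosen after seeing the data, and the cause of the moves below was not tested. The share of all measured genes called was not counted under these settings, so the counts that follow only describe the list. For HFpEF-scr over Control, the count of higher genes in fibroblasts was 1 in place of 0 with at most 10% mitochondrial UMIs, with cells classed singly and without the cluster led by Hsd11b1. In macrophages it was 2 in place of 0 with at most 10% and with doublets kept, and the count of lower genes was 2 in place of 1 with at most 50%, at Leiden resolution 2.0 and with each cell weighted alike, and 0 with doublets kept. In endothelial cells the higher count of 6 became 2 (at most 10%), 10 (at most 50%) and 1 (thinned), and the lower count of 0 became 1 (at most 10%, clusters weighted alike). In smooth muscle cells the higher count of 2 became 1 with at most 10%, doublets kept, members among the variable genes, cells classed singly, thinning, cells weighted alike and at least 100 UMIs per gene, while the lower count of 1 became 3 (at most 10%, cells weighted alike), 2 (doublets kept, cells classed singly) and 6 (thinned). For HFpEF-FoxO1-sh over HFpEF-scr, the higher count of 5 in fibroblasts became 2 (at most 10%, clusters weighted alike), 3 (total without mitochondrial UMIs) and 1 (without the cluster led by Hsd11b1), and the lower count of 0 became 1 with members among the variable genes, without mitochondrial UMIs in the total and without that cluster. In macrophages the higher count of 0 became 8 (at most 10%), 2 (at most 50%) and 1 (Leiden resolution 2.0, thinned, cells or clusters weighted alike), and the lower count of 0 became 2 (at most 10%, doublets kept). In endothelial cells the higher count of 1 became 0 (at most 50%, cells weighted alike) and 2 (the cluster led by Apln alone), and the lower count of 0 became 3 (at most 10%), 2 (thinned, the Apln cluster alone) and 1 (at most 50%, cells classed singly, cells or clusters weighted alike). In smooth muscle cells the higher count of 1 became 2 (at most 10%) and 0 (members among the variable genes, cells classed singly, total without mitochondrial UMIs), and the lower count of 4 became 1 (thinned, at least 100 UMIs per gene). With at most 10% and classes unchanged, the higher and lower counts for HFpEF-scr over Control were 1 and 0 in fibroblasts, 3 and 0 in macrophages, 1 and 6 in endothelial cells and 2 and 3 in smooth muscle cells. For HFpEF-FoxO1-sh over HFpEF-scr they were 2 and 2, 4 and 3, 3 and 3, and 3 and 3 in the same order. The log2 ratio turned to -0.51 for Nr4a2 in endothelial cells (HFpEF-scr over Control) and to 0.37 in smooth muscle cells (HFpEF-FoxO1-sh over HFpEF-scr) there. It turned to 0.12 for Egr3 in macrophages with doublets kept (HFpEF-scr over Control), to 0.25 for Nr4a2 in smooth muscle cells with at most 10% mitochondrial UMIs and to -0.027 for Ier2 there after thinning. No paired analysis was possible because the labels give no replicate numbers and each group is 1 library, so no replicate could be left out either.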
